A study of Mus musculus with 6 samples.

Results

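A set of 10 genes for collagens that do not form fibrils of their own was examined in the cochlear lateral wall of aging mice. They comprise 3 chains of type VI collagen (Col6a1, Col6a2, Col6a3), 3 chains of type IX collagen (Col9a1, Col9a2, Col9a3), type XII collagen (Col12a1), type XIV collagen (Col14a1), type XV collagen (Col15a1) and type XVIII collagen (Col18a1). The members were taken as every probe set whose only annotated gene symbol is one of these 10 genes, which gave 20 probe sets of 45037 and 10 genes of 18193. The groups were OldAdult, CBA/CaJ mice aged 1.5 years, and YoungAdult, CBA/CaJ mice aged 1 to 3 months, with 3 arrays each. Mice of both sexes were raised in a quiet facility, no treatment is named, and the lateral wall of the cochlear duct was dissected from the inner ear. Nothing in the labels tells if each sample is 1 animal or a pool, though the sex-linked signals below show RNA of both sexes in most samples. How many animals each sample held is not known, so p-values measure the spread between these samples, which may be technical.

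Type VI collagen is a heterotrimer of 3 different chains that assembles into beaded microfilaments between cells and the interstitial matrix. Types IX, XII and XIV are FACIT collagens, short for fibril-associated collagens with interrupted triple helices, which sit on the surface of other collagen fibrils. Type IX decorates type II and XI fibrils of cartilage and of the inner ear, while types XII and XIV are found on type I fibrils of ligament, tendon and skin. Types XV and XVIII, the multiplexins, lie at basement membranes of vessels and epithelia, and cleavage of type XVIII releases endostatin. The lateral wall holds the stria vascularis, which makes endolymph, and the spiral ligament, a connective tissue rich in collagen.

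Values are log2 signals of Affymetrix probe sets, a difference is the OldAdult mean minus the YoungAdult mean, and ± marks the SD over 3 arrays for a mean and the standard error for a difference. A probe set was called when its limma p-value, with Benjamini-Hochberg adjustment across the 45037 tested, was under 0.05. Array medians lay between 6.26 and 6.30. Genes that mark the lateral wall were bright on every array: all 16 measured of 17 listed were brighter than the median probe set, 0 were called by limma (3 had an unadjusted p under 0.05), and their linear signals summed to 162388 to 162570 in OldAdult and 158514 to 163052 in YoungAdult arrays. Young replicate 2 stood apart by an Xist signal of 6.06, where the other arrays had 11.95 to 12.65, so its sex make-up differed from theirs. Those 5 arrays also carried Y-linked signal, with Eif2s3y at 8.97 to 9.71 and Kdm5d at 7.19 to 8.04, against 10.46 and 8.96 on young replicate 2. Each of the 5 samples thus held RNA of both sexes, and so of more than 1 animal. Counts of calls among the members and in the lists below are therefore also given without that array. Control probe sets for Gapdh read the 3′ end above the 5′ end by 1.26 to 1.45 in OldAdult and 1.07 to 1.25 in YoungAdult arrays. Those for Actb overlapped, at 1.39 to 1.84 in OldAdult and 1.46 to 1.60 in YoungAdult arrays, and the part of 3′ bias in the results below was not tested. By these measures 2 of the 20 member probe sets, 1 each of Col12a1 and Col6a2, were called lower in OldAdult tissue, against 2.84% of all probe sets. The other 8 genes did not pass. Averaged over their probe sets, Col12a1 and Col6a2 did not pass either (limma adjusted p = 0.0683 and 0.0892 over genes). Col6a2 kept its call in 1 of the 6 fits that left out 1 array. In bulk tissue, fewer cells of a type and less RNA per cell cannot be told apart.

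The promoters of the type VI chains are shown, because 1 of these chains was called lower in OldAdult tissue. Each run is the 250 bases before an annotated start, read 5′ to 3′ on the gene's strand, from RefSeq on GRCm38.p6, with motif matches in capitals. The motifs searched on both strands were the TATA box (TATAAA), the CCAAT box (CCAAT), the GC box (GGGCGG) and the AP-1 site (TGANTCA). The Col6a1 window is chr10:76726045-76726294 on the minus strand, the windows before the Col6a2 starts are chr10:76623631-76623880 and chr10:76623405-76623654 on the minus strand, and that of Col6a3 is chr1:90843972-90844221 on the minus strand.
Col6a1: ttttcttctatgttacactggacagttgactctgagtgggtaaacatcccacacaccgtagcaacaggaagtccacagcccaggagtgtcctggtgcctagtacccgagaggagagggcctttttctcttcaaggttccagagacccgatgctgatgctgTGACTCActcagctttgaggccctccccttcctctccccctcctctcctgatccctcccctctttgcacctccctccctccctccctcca
Col6a2, upstream start: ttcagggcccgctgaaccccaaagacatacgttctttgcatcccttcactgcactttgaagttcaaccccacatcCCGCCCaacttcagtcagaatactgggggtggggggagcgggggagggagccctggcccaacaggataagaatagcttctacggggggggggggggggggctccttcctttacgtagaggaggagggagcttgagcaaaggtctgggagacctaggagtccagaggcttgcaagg
Col6a2, downstream start: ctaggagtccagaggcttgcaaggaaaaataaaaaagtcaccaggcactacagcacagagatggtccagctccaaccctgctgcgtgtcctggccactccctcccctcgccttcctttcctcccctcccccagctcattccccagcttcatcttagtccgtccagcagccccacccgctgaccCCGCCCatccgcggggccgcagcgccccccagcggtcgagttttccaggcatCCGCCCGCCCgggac
Col6a3: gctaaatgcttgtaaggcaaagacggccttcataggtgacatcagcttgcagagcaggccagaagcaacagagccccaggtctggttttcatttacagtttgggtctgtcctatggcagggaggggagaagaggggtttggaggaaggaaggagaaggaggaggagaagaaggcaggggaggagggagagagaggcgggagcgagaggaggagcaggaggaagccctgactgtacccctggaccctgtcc

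Col6a1 had 1 AP-1 match, 90 bases before its start, and no GC box. Col6a2 had 1 GC box match before its upstream start and 3 before its downstream start, of which the last pair overlap each other. Col6a3 had none of the 4 motifs. Windows were used for 7 of the 10 genes, 10 windows in all, with a GC box in 4, a CCAAT box in 2, an AP-1 match in 1 and a TATA box in 0. Col9a3, Col12a1 and Col14a1 had no window, so the promoter of the called Col12a1 was not searched. Among 32851 promoters of the same length in the table, 32.7% held the GC box, 33.8% the CCAAT box, 6.75% the AP-1 letters and 12.4% the TATA box. A match describes these letters only.

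Of the 20 probe sets, 2 were called lower in OldAdult tissue, 0 were called higher by limma (0 with an unadjusted p under 0.05) and 18 did not pass. Over all probe sets, 2.84% were called lower and 1.86% higher. The called probe sets were 1434411_at of Col12a1 and 1452250_a_at of Col6a2. The difference was negative for 17 of 20 member probe sets and for 48.2% of all probe sets, and its median was -0.18 over the members and 0.01 over all probe sets. Several probe sets report on the same gene, so the 20 are not independent. For 5 of 20 the 3 OldAdult values lay entirely below the 3 YoungAdult values, which 11.3% of all probe sets showed. An unadjusted limma p under 0.05 with a lower OldAdult mean was found for 5 of 20 and for 9.37% of all probe sets. Without young replicate 2, the same 2 probe sets were called. That fit called more probe sets in all, 1542 lower and 1851 higher, against 1281 and 838 with 6 arrays.

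**Figure D1:**
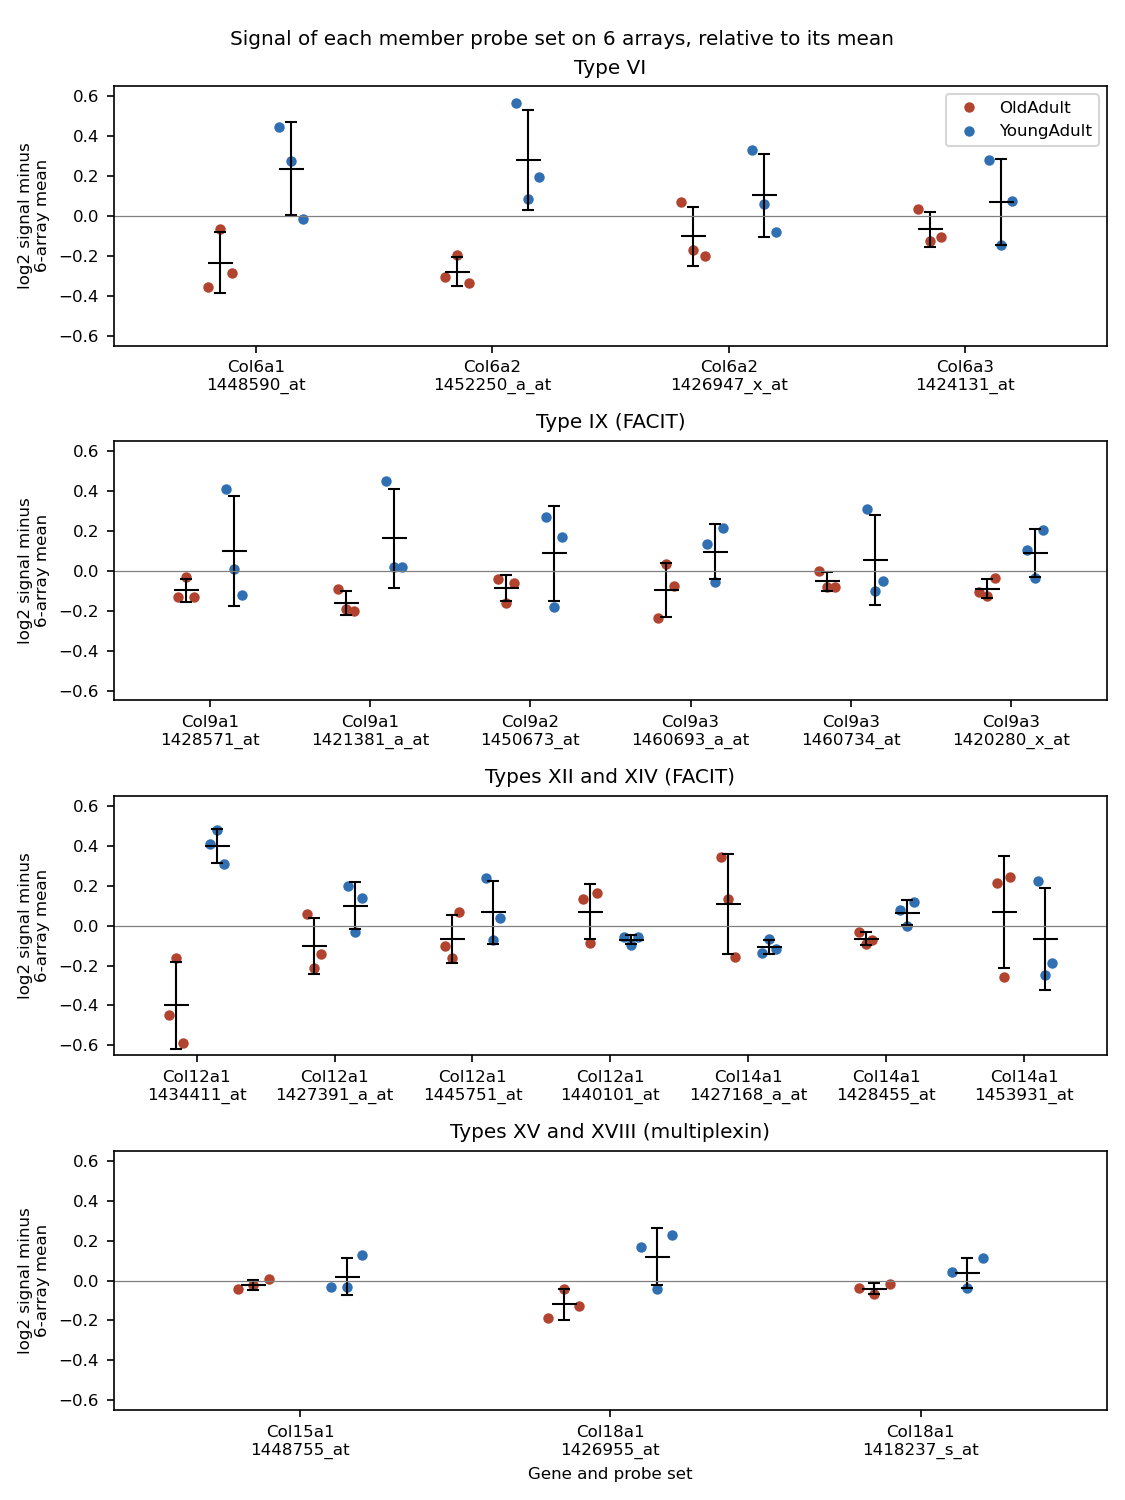
Log2 signal of each of the 20 member probe sets on the 3 OldAdult (red) and 3 YoungAdult (blue) arrays, after subtracting the probe set's mean over 6 arrays, with group mean and SD as black bars. The groups are apart for Col12a1 1434411_at, with OldAdult signals of 5.81 to 6.24 and YoungAdult signals of 6.71 to 6.88.

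Col12a1 encodes type XII collagen, a FACIT that binds type I fibrils and is abundant in ligament and tendon. Its probe set 1434411_at had signals of 5.95, 6.24 and 5.81 in OldAdult arrays, against 6.81, 6.88 and 6.71 in YoungAdult arrays. Every OldAdult value was below every YoungAdult value. The probe set lay near the middle of the array, brighter than 51.6% of all probe sets, and all 3 OldAdult values were below the median signal of 6.28. The group means were 6.0 ± 0.22 in OldAdult and 6.80 ± 0.09 in YoungAdult tissue (SD, n = 3 each). Col12a1 fell in OldAdult tissue by this probe set, with a difference of -0.80 ± 0.12, an OldAdult signal 0.574 times the YoungAdult signal, and a limma adjusted p of 0.00990. The call held in each of the 6 fits that left out 1 array, with differences of -0.92 to -0.71 and limma adjusted p of 0.00750 to 0.0434. Without young replicate 2 it was -0.76 (limma adjusted p = 0.0177).

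The other probe sets of Col12a1 gave smaller differences. Probe set 1427391_a_at had 6.10, 5.83 and 5.90 in OldAdult arrays, against 6.24, 6.01 and 6.18 in YoungAdult arrays. These groups overlapped, and the difference of -0.20 ± 0.10 did not pass (limma adjusted p = 0.339). Probe sets 1445751_at and 1440101_at lay at the dim end of the array, brighter than 9.70% and 6.04% of all probe sets. Their differences were -0.13 ± 0.11 and 0.14 ± 0.09 (limma adjusted p = 0.581 and 0.468). Averaged over its 4 probe sets, Col12a1 differed by -0.25 and did not pass (limma adjusted p = 0.0683 over genes), so the call rests on 1 probe set of 4. Where each probe set lies along the transcript was not used here.

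Type VI collagen was measured by 4 probe sets, all with a lower OldAdult mean, and 1 was called. Col6a2, the alpha 2 chain, had signals of 7.94, 8.05 and 7.91 for probe set 1452250_a_at in OldAdult arrays, against 8.81, 8.33 and 8.44 in YoungAdult arrays. The groups did not overlap, and young replicate 1 was the highest array. Means were 7.97 ± 0.07 in OldAdult and 8.53 ± 0.25 in YoungAdult tissue (SD, n = 3 each). Col6a2 fell by this probe set, with a difference of -0.56 ± 0.13 and an OldAdult signal 0.678 times the YoungAdult signal (limma adjusted p = 0.0434). The call was kept without young replicate 2, at -0.66 (limma adjusted p = 0.0222). It was lost on leaving out any other single array, with differences of -0.60 to -0.42 and limma adjusted p of 0.0623 to 0.161.

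The second Col6a2 probe set, 1426947_x_at, comes from the same source sequence. It had 7.67, 7.43 and 7.40 in OldAdult arrays, against 7.93, 7.66 and 7.52 in YoungAdult arrays. The groups overlapped, and the difference of -0.20 ± 0.12 did not pass (limma adjusted p = 0.439), running between -0.295 and -0.09 with 1 array left out. The _x_at suffix marks a probe set in which some probes may also match other transcripts. The mean of both probe sets differed by -0.38 and did not pass (limma adjusted p = 0.0892 over genes).

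Col6a1, the alpha 1 chain, had signals of 6.97, 7.26 and 7.04 in OldAdult arrays, against 7.77, 7.60 and 7.31 in YoungAdult arrays. The ages did not overlap, with old replicate 2 and young replicate 3 lying next to each other. The difference was -0.47 ± 0.13 with a 95% interval of -0.77 to -0.17, and it did not pass over all probe sets (limma adjusted p = 0.0841). It stayed above the threshold in all 6 fits without 1 array, at limma adjusted p of 0.0693 to 0.258. Col6a3, the large alpha 3 chain whose C-terminal end is cleaved off after secretion, was dimmer than the median probe set. It had 5.92, 5.76 and 5.78 in OldAdult arrays, against 6.17, 5.74 and 5.96 in YoungAdult arrays. Young replicate 2 was the lowest of the 6 arrays, so the groups overlapped, and the difference was -0.14 ± 0.12 with a 95% interval of -0.40 to 0.13 (limma adjusted p = 0.614). Leaving out young replicate 1 gave -0.03, and leaving out young replicate 2 gave -0.245.

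Whether the chains of a trimer changed unequally was examined by the ratio of their signals within each array, for 6 pairs of chains, each chain read by its brightest probe set. The log2 ratio of Col6a3 to Col6a2 was -2.02, -2.29 and -2.13 in OldAdult arrays, against -2.64, -2.59 and -2.48 in YoungAdult arrays. The ratio was higher in all 3 OldAdult arrays, by 0.42 (exact permutation p = 0.1, two-sided, Benjamini-Hochberg adjusted p = 0.6 over 6 pairs). For Col6a2 that is the called 1452250_a_at, and with the mean of both its probe sets the difference was 0.245 (exact permutation p = 0.1). A p of 0.1 is the smallest that 3 against 3 can give. The ratio of Col6a3 to Col6a1 differed by 0.33 (exact permutation p = 0.2) and that of Col6a2 to Col6a1 by -0.09 (exact permutation p = 0.5). No pair passed. Among the type IX chains the 3 ratios differed by -0.02 to 0.02, less than the SD of 0.10 to 0.31 within either age, with exact permutation p of 0.8 to 1.

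**Figure D2:**
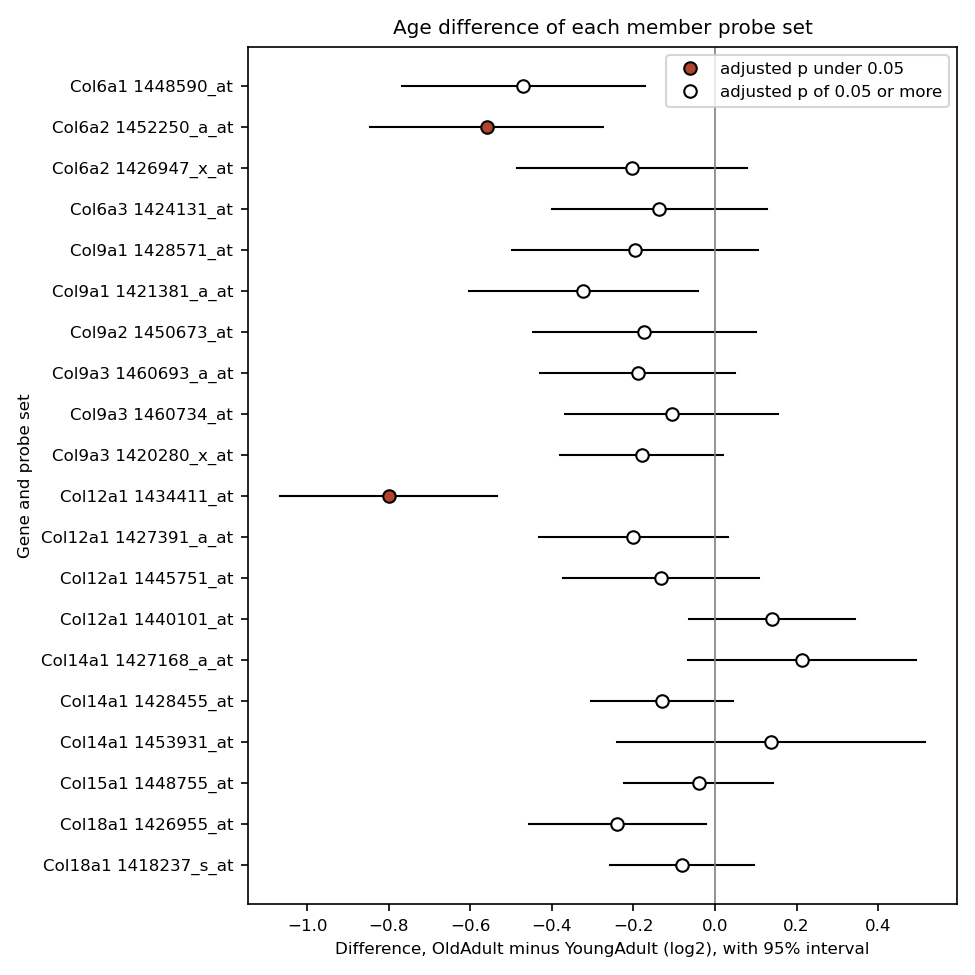
Difference in log2 signal, OldAdult minus YoungAdult, for each member probe set, with its 95% interval from limma. Filled points, Col6a2 1452250_a_at at -0.56 and Col12a1 1434411_at at -0.80, passed an adjusted p of 0.05, and 3 open points lie above 0.

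Type IX collagen, a covalent partner of type II fibrils whose loss in mice and humans is linked to hearing loss, was measured by 6 probe sets. All 6 had a lower OldAdult mean, between -0.32 and -0.11, 0 were called by limma and 1 had an unadjusted p under 0.05. With young replicate 1 left out, the 6 differences ran between -0.18 and 0.02, with Col9a1 1428571_at at -0.04, Col9a2 at -0.08 and Col9a3 1460734_at at 0.02. Col9a1, the alpha 1 chain, had signals of 11.45, 11.55 and 11.45 for its brightest probe set 1428571_at in OldAdult arrays, against 11.99, 11.59 and 11.46 in YoungAdult arrays. That probe set was brighter than 96.3% of all probe sets. The groups overlapped, and the difference of -0.20 ± 0.13 had a 95% interval of -0.50 to 0.10 (limma adjusted p = 0.494).

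The other Col9a1 probe set, 1421381_a_at, had 8.03, 7.93 and 7.92 in OldAdult arrays, against 8.57, 8.14 and 8.14 in YoungAdult arrays. These groups did not overlap, with young replicate 1 the highest. The difference was -0.32 ± 0.12 and did not pass (limma adjusted p = 0.192). The annotation used for promoters gives Col9a1 a pair of starts, and which transcripts each probe set reads was not used here.

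Col9a2, the alpha 2 chain, had 8.27, 8.15 and 8.25 in OldAdult arrays, against 8.58, 8.13 and 8.48 in YoungAdult arrays. The ages overlapped, since young replicate 2 was the lowest array, and the difference was -0.17 ± 0.12 (limma adjusted p = 0.511). Without young replicate 2 it was -0.31 and did not pass (limma adjusted p = 0.0825). Col9a3, the alpha 3 chain, had 10.14, 10.41 and 10.30 in OldAdult arrays, against 10.51, 10.32 and 10.59 in YoungAdult arrays for its brightest probe set 1460693_a_at. The groups overlapped, and the difference was -0.19 ± 0.10 (limma adjusted p = 0.382). The other Col9a3 probe sets, 1460734_at and the dim 1420280_x_at, differed by -0.11 ± 0.11 and -0.18 ± 0.09 (limma adjusted p = 0.710 and 0.315). The 95% intervals of the 6 type IX probe sets reached no lower than -0.60 and no higher than 0.15.

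Col14a1 encodes type XIV collagen, a FACIT close to type XII, and its 3 probe sets did not share a sign. Its brightest, 1427168_a_at, had 6.32, 6.11 and 5.82 in OldAdult arrays, against 5.84, 5.91 and 5.86 in YoungAdult arrays. Old replicate 3 was the lowest of the 6 arrays and old replicates 1 and 2 the highest. The difference was 0.21 ± 0.12 (limma adjusted p = 0.408). Probe set 1428455_at had 5.12, 5.06 and 5.08 in OldAdult arrays, against 5.23, 5.15 and 5.27 in YoungAdult arrays, without overlap but with a difference of only -0.13 ± 0.08 (limma adjusted p = 0.417). Probe set 1453931_at differed by 0.14 ± 0.17 (limma adjusted p = 0.751). All 3 were dimmer than the median probe set.

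The multiplexins did not pass either. Col18a1, the precursor of endostatin, had 7.60, 7.75 and 7.66 for probe set 1426955_at in OldAdult arrays, against 7.96, 7.75 and 8.02 in YoungAdult arrays. The groups met at 7.75, the value of both old replicate 2 and young replicate 2. The difference was -0.24 ± 0.10 with a 95% interval of -0.46 to -0.02 (limma adjusted p = 0.209), and -0.32 without young replicate 2 (limma adjusted p = 0.0725). Probe set 1418237_s_at of Col18a1 differed by -0.08 ± 0.08 (limma adjusted p = 0.672). Col15a1, whose protein tethers basement membranes to the matrix below them, had 5.11, 5.13 and 5.16 in OldAdult arrays, against 5.12, 5.12 and 5.28 in YoungAdult arrays. Its difference of -0.04 ± 0.08 (limma adjusted p = 0.863) had a 95% interval of -0.22 to 0.14, at a signal brighter than 33.6% of all probe sets.

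The YoungAdult arrays differed among themselves. Young replicate 1 was the highest of the 3 for 11 of the 20 member probe sets, and for 38.3% of all probe sets, ties left out. These 11 included all 4 type VI probe sets and 4 of the 6 type IX probe sets, but not Col12a1 1434411_at. OldAdult arrays were closer together for type IX, with SDs of 0.05 to 0.14, against 0.12 to 0.28 in YoungAdult arrays.

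**Figure D3:**
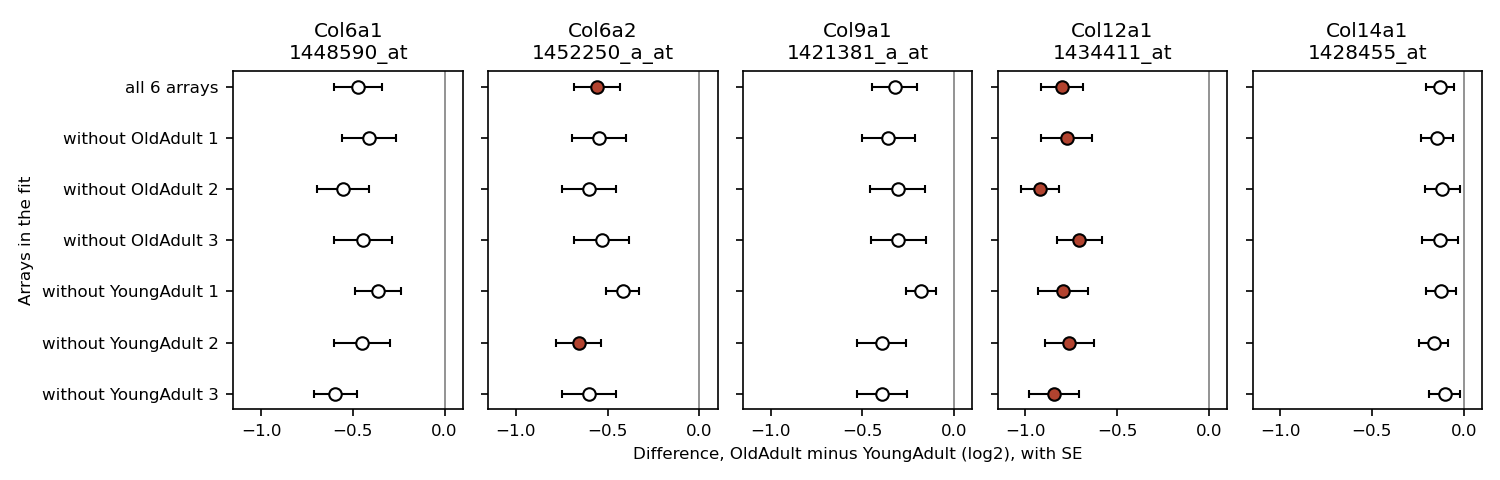
Difference in log2 signal, OldAdult minus YoungAdult, with its standard error, for the 5 member probe sets whose groups did not overlap, in the fit of all 6 arrays and with each array left out. Filled points passed an adjusted p of 0.05: Col12a1 in all 7 fits and Col6a2 in 2 of 7.

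Genes whose pattern over the 6 arrays was most like that of the family were picked among 466 genes above the median signal with a range of at least 1 log2. For the mean of the type VI chains these were Ppic (Pearson r = 0.991), Atf3 (0.985), Nat8f3 (0.984), Pik3r1 (0.984) and Prokr2 (0.983), over 6 arrays. For the mean of the type IX chains they were Edn1 (r = 0.968), Bcan (0.959), Nuak2 (0.950), Nup214 (0.948) and Nr4a2 (0.948). All 10 had their highest signal in young replicate 1. For example, Ppic, which encodes cyclophilin C, had 7.72, 7.86 and 7.63 in OldAdult arrays, against 8.63, 8.22 and 8.20 in YoungAdult arrays. Edn1, the gene of endothelin-1, had 8.08, 8.04 and 7.98 in OldAdult arrays, against 9.10, 8.20 and 8.50 in YoungAdult arrays. The arrays of 2 ages and 1 high array set these correlations, which are given as a description.

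The wider pathway was read at 1 probe set per gene, the brightest, where 2.33% of 18193 genes were called lower and 2.45% higher, with a median difference of 0.03. By this measure 2 of the 10 members were called lower, 0 higher, and their median was -0.19. Of 11 fibril-forming collagen genes, among them chains of the type I, II and XI fibrils that carry FACITs, 4 fell, 0 rose and 7 did not pass, with a median of -0.31. Col11a1, whose protein lies within the type II fibrils that carry type IX, had 9.03, 9.02 and 8.97 in OldAdult arrays, against 10.47, 10.14 and 10.29 in YoungAdult arrays. Its difference was -1.29 ± 0.10 (limma adjusted p = 0.000990). Col5a2, which joins type I fibrils, had 7.12, 7.20 and 6.89 in OldAdult arrays, against 8.65, 8.24 and 8.30 in YoungAdult arrays (difference -1.33 ± 0.13, limma adjusted p = 0.00230). Both ranges were free of overlap. The other genes of this list that fell, named after their values were seen, were Col1a2, a type I chain, and Col3a1, the type III chain, at -2.69 ± 0.29 and -1.51 ± 0.23 (limma adjusted p = 0.00303 and 0.0117). Col1a2 kept its call in 6 of 6 fits without 1 array, and Col3a1 in 5, with a limma adjusted p of 0.0566 without old replicate 3. Col1a1, the other type I chain, was likewise named after its values were seen. Its groups overlapped, and its difference of -0.31 ± 0.22 did not pass (limma adjusted p = 0.512). Its probe set averaged 6.28 over the arrays, close to the median signal of all probe sets, against 10.4 for that of Col1a2. Col2a1, the type II chain itself, also named after its values were seen, did not pass, at -0.46 (limma adjusted p = 0.214), but passed without young replicate 2 at -0.69 (limma adjusted p = 0.0127).

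Among 15 measured of 18 other FACIT, type VI-like and minor collagens, 1 fell, 1 rose and 13 did not pass, with a median of -0.01. Col8a2, a short-chain collagen of endothelial and corneal basement membranes, had 9.77, 9.83 and 9.77 in OldAdult arrays, against 10.28, 10.17 and 10.20 in YoungAdult arrays (difference -0.43 ± 0.08, limma adjusted p = 0.0202). Col19a1, another FACIT, was the one that rose, with 4.96, 5.08 and 5.12 in OldAdult arrays, against 4.65, 4.40 and 4.59 in YoungAdult arrays (difference 0.51 ± 0.09, limma adjusted p = 0.0235). Its signals were dimmer than the median probe set on all 6 arrays.

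Of 16 measured receptors and surface partners of these collagens, 1 fell and 0 rose, with a median of -0.11. Itga10, a collagen-binding integrin chain of cartilage, had 9.58, 9.75 and 9.72 in OldAdult arrays, against 10.50, 10.11 and 10.21 in YoungAdult arrays (difference -0.59 ± 0.11, limma adjusted p = 0.0263). Of 21 measured genes for chain modification, folding and secretion, 1 fell and 0 rose, with a median of -0.12. That gene was Plod1, a lysyl hydroxylase, at 8.86, 8.82 and 8.91 in OldAdult arrays, against 9.40, 9.21 and 9.37 in YoungAdult arrays (difference -0.46 ± 0.08, limma adjusted p = 0.0212). Of 14 measured proteases that cleave collagens or release endostatin, 2 fell and 0 rose, with a median of -0.12. They were Bmp1, the procollagen C-proteinase, at -0.47 ± 0.09, and Adamts3, a procollagen N-proteinase, at -0.57 ± 0.08 (limma adjusted p = 0.0270 and 0.0105). Adamts3 was dimmer than the median probe set. Of 19 matrix partners such as decorin, nidogens and tenascins, 0 were called by limma, 4 had an unadjusted p under 0.05, and the median was -0.003. The 2 with the smallest p were Lama2, a laminin chain, at -0.38 ± 0.09 and Tnc, tenascin-C, at -0.76 ± 0.22 (limma adjusted p = 0.0552 and 0.0943). Tnc was dimmer than the median probe set on all 6 arrays. It had 4.77, 4.86 and 4.69 in OldAdult arrays, against 4.96, 5.97 and 5.66 in YoungAdult arrays. Without young replicate 2, the genes called lower numbered 5 of 11 fibrillar collagens, 1 of 19 matrix partners and 2 of 21 modification genes, and the counts of the other pathway lists were the same. That fit called 3393 probe sets in all, against 2119 with 6 arrays. In fits without 1 array, Col11a1 and Col5a2 kept their calls in 6 of 6, and Adamts3 in 5, with a limma adjusted p of 0.0623 without old replicate 3. Col8a2, Plod1 and Bmp1 were called only without young replicate 2, and otherwise reached limma adjusted p of up to 0.104, 0.0863 and 0.125. Itga10 was called only without young replicate 1 or young replicate 2, reaching up to 0.0944 in the other fits. Col19a1 lost its call without young replicate 3, old replicate 2 or old replicate 3, at up to 0.112. Lama2 passed without young replicate 2 (limma adjusted p = 0.0358) and Tnc without young replicate 1 (limma adjusted p = 0.00832).

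**Figure D4:**
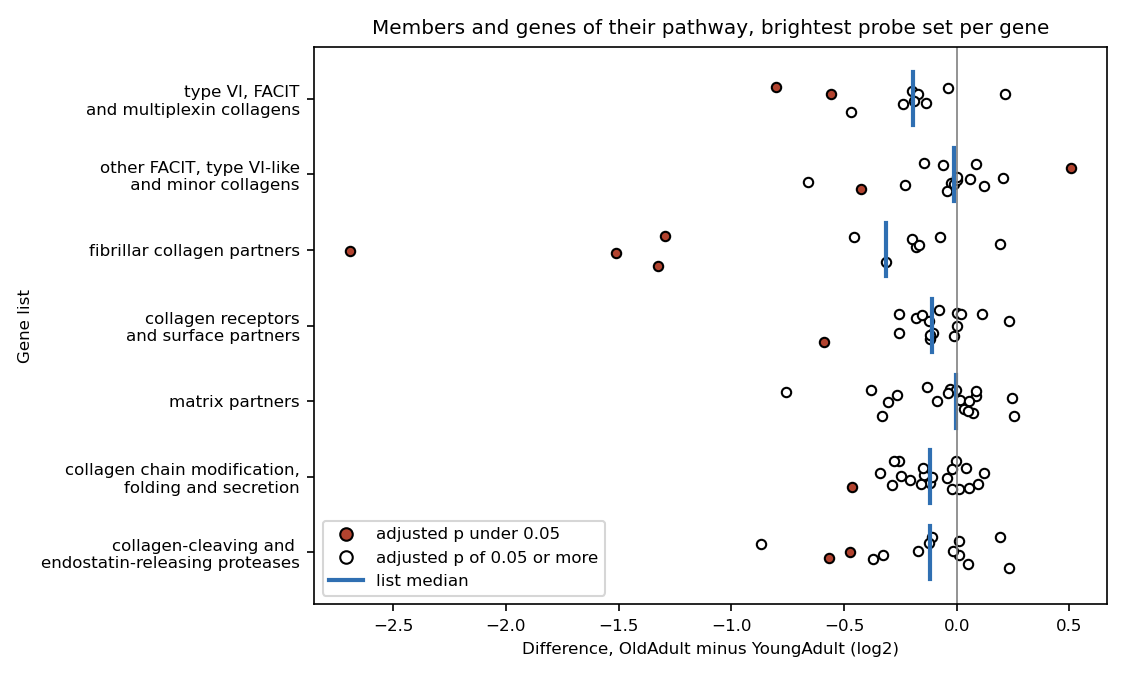
Difference in log2 signal, OldAdult minus YoungAdult, of each gene (brightest probe set) in the members' list and 6 lists of their pathway, with list medians as blue bars and genes that passed an adjusted p of 0.05 filled. Filled points number 2 of 10 among the members, 4 of 11 among the fibrillar collagens and 0 of 19 among the matrix partners.

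Markers of other cell types moved with the same contrast, and their part in the results on Col12a1 and Col6a2 was not tested. Of 7 measured bone markers of 11 listed, 3 were called lower, and their linear signals summed to 2839 to 3628 in OldAdult arrays, against 5852 to 7127 in YoungAdult arrays. Of 10 marrow myeloid markers, 8 were called lower, with sums of 809 to 1595 in OldAdult and 2345 to 3686 in YoungAdult arrays. Of 10 pericyte and smooth muscle markers, 2 were called lower, with sums of 7822 to 8454 in OldAdult and 8509 to 11219 in YoungAdult arrays. Of 11 fibroblast and fibrocyte markers 0 were called by limma and 3 had an unadjusted p under 0.05. Their sums, to which the brightest genes add most, did not overlap, at 74398 to 75172 in OldAdult and 79621 to 79791 in YoungAdult arrays. The brightest of them, Otos, Coch and Car3, also count among the lateral wall genes above, so these 2 lists are not separate. The mean log2 signal over the fibroblast and fibrocyte markers did overlap, at 10.41 to 10.57 in OldAdult and 10.54 to 10.58 in YoungAdult arrays. Of 13 cartilage markers 1 was called lower, and an unadjusted p under 0.05 was found for 4 with a lower and 1 with a higher OldAdult mean. Their sums overlapped, at 19704 to 22940 in OldAdult and 20234 to 20888 in YoungAdult arrays, while the mean of their log2 signals was 7.40 to 7.498 in OldAdult and 7.499 to 7.66 in YoungAdult arrays. These cartilage values stand beside the type IX chains too, and their part in the lower type IX means was not tested. Of 9 macrophage markers 2 were called higher, with sums of 8014 to 8853 in OldAdult and 4731 to 5551 in YoungAdult arrays. A log2 array signal has no 0, and the defining cartilage markers Matn1, Matn3, Col10a1, Hapln1, Comp and Snorc were dimmer than the median probe set. All 7 bone markers were brighter. Without young replicate 2, the markers called lower numbered 5 of 10 marrow myeloid, 2 of 13 cartilage and 3 of 10 pericyte and smooth muscle markers, 3 of 9 macrophage markers were called higher, and the counts of the other marker lists were the same. Of 6 measured Schwann cell markers, 2 were called lower and 1 higher. Limma called 0 of 10 endothelial, 0 of 9 skeletal muscle and 0 of 8 organ of Corti markers, with an unadjusted p under 0.05 for 3, 1 and 1 of them.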

How the data were processed

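RNA of 3 OldAdult and 3 YoungAdult lateral wall samples was labelled with an Affymetrix 3′ IVT kit, which reads mainly 3′ ends, and hybridised to 1 array each, per the labels' protocols. Affymetrix Expression Console, RMA and MAS5 appear in the submitters' processing notes, without roles or versions. The deposited values are log2 signals with 2 decimals, already normalized between arrays by the authors, which would remove a shift shared by most genes. Scanner files were not used here, so neither background nor scan batch was examined. The 64 control probe sets were left out. Symbols came from GEO's platform annotation, with 1 symbol for 34945 probe sets, several for 932 and none listed for 9160, and probe sets with several were not named. Limma 3.58.1 in R 4.3.3 (lmFit, eBayes, age as the only term) was run on all 45037 probe sets and tested on simulated data. A gene outside the members was represented by its brightest probe set. Named genes were all members, up to 2 called genes per direction in each pathway list (or the 2 smallest p), and the 5 most alike in pattern. Col1a1, Col1a2, Col2a1 and Col3a1 lie outside this rule. The members, lists and motifs were chosen with earlier results of these data known. Promoter windows are RefSeq's. Alternatives were normalization again, a filter on dim probe sets, another variance model, the replicate block, a stricter threshold, means over probe sets and leaving out each array. Figures were drawn with matplotlib 3.10.9.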

Additional observations from a re-analysis of the deposited data

How the results depend on the processing

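The 2 member calls, Col12a1 1434411_at and Col6a2 1452250_a_at, were kept on quantile normalization again, median centring, the filter on dim probe sets (which left 11 of the 20 member probe sets in the test) and the intensity trend with robust variance. At an adjusted p of 0.01, 1 member probe set and 436 probe sets in all were called. Leaving out 1 array gave 1 to 2 member calls and 515 to 3393 calls in all, against 2 and 2119 with 6 arrays. The 3393 came without young replicate 2, and leaving out any other array gave 515 to 1122.

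Whether the replicate numbers pair the samples could not be decided from these values. Deviations of same-numbered arrays from their group means correlated at 0.14, 0.08 and 0.01. Old replicates 1 and 2 correlated best with the young array of their own number, and old replicate 3 did not. With 3 arrays per group such deviations are not independent of each other. With the replicate block, 1932 probe sets and 1 member probe set were called, and Col6a2 had a limma adjusted p of 0.0565. Col12a1 1434411_at was the one kept.

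Some small differences changed sign. These were Col9a3 1460734_at, which ran between -0.183 and 0.0217 with 1 array left out and was positive without young replicate 1, and Col15a1, which ran between -0.0667 and 0.0133 and was positive without young replicate 3. With the mean over a gene's probe sets, Col12a1 1440101_at turned to -0.25 and Col14a1 1428455_at to 0.0733. Among chain ratios, Col6a2 to Col6a1 was 0.0883 with the mean over probe sets, against -0.09. Col9a2 to Col9a1 was -0.0125 and Col9a3 to Col9a2 was 0.0178 on quantile normalization, and Col9a3 to Col9a2 was 0.0144 with the mean over probe sets. Leaving out 1 array gave -0.065 to 0.175 for Col9a2 to Col9a1, -0.13 to 0.175 for Col9a3 to Col9a1 and -0.117 to 0.0783 for Col9a3 to Col9a2. With 3 pairs the exact sign-flip test in the replicate block cannot go below p = 0.25. The number of arrays and the dim signals of Col14a1, Col15a1 and Col6a3 limit what could be seen. The cause of these changes was not tested.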
